A study of Mus musculus with 6 samples.

Results

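Elastic fibres let tissues such as arteries, lung, skin and the connective tissue of muscle recoil after stretch. Each fibre has a core of cross-linked elastin that is laid down on a scaffold of microfibrils, which are built from fibrillins and small microfibril-associated glycoproteins. Fibulins and EMILIN1 sit between core and scaffold, and lysyl oxidase joins the elastin chains. The 10 genes described here cover these roles, with Eln for the core, Lox for cross-linking, Fbln1, Fbln2, Fbln5 and Emilin1 for assembly, and Fbn1, Fbn2, Mfap2 and Mfap5 for the microfibril. They were chosen by role, but with the difference of Eln between the groups in these same data already known, so the values below are a description and no member is put to a test of its own. In the platform annotation used here 17 of 45281 probes, for 8 of the 10 genes, carried these symbols. Probes for Fbn1 and Fbn2, the fibrillins, were not analysed here.

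Primary myoblasts are muscle precursor cells, here given as grown out of minced hind limb muscle. Total RNA labelled as theirs was hybridised to 6 Illumina mouse whole genome bead arrays. Of these, 3 were labelled WT and 3 Rev-/-, a germline null of Rev-erbα (gene Nr1d1), the nuclear receptor that represses clock genes. Both groups were given as male C57BL/6 mice, with WT littermates as controls, and the cells as kept growing with FBS (20%) and bFGF (5 ng/ml) on collagen. The labels gave an age of 6 weeks and the study's methods a younger one. Because the knockout is global, every cell type that a culture holds carries it. Samples were called independent, yet nothing tied them to separate animals, so the spread between arrays may in part be technical.

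Several facts of the whole series bear on these genes. Nr1d1 itself ran from 6.54 to 7.21 in log2 intensity on the WT arrays and from 6.51 to 7.14 on the Rev-/- arrays, and lay above background on 3 of 6 arrays, so its signal did not follow the labels. No source used here places its probe inside or outside the deletion. Of the 6 myoblast markers, Pax7 and Myf5 of the precursor cells lay above background on 0 of 6 arrays, and Myod1 (7.84 to 8.07), Myog (8.39 to 8.97), Cdh15 (9.11 to 9.75) and Des (12.51 to 12.92) on all 6. Myh8, a myosin of differentiated muscle, ran from 14.48 to 14.67 and Hba-a1, a haemoglobin chain, from 14.21 to 14.60. These values are not those of muscle precursor cells alone, and what else the samples held was not tested. The name myoblast is therefore that of the labels. Array Rev-/- 1 was the least like the rest. Its correlations with the remaining 5 averaged 0.983, where each of those averaged 0.991 or 0.992. Its 4 kept bone markers, of 5 listed, averaged 9.95 in log2 intensity against 6.78 to 6.95 elsewhere, and its neutrophil markers, 5 of 5 kept, averaged 10.92 against 6.93 to 8.52. Xist, which females transcribe from their silenced X, exceeded background on 5 arrays, all but Rev-/- 1, although all mice were labelled male. The brighter probe of the Y-linked Eif2s3y read 8.26 to 9.08 on WT 2, WT 3, Rev-/- 1 and Rev-/- 2, and 6.72 and 6.82 on WT 1 and Rev-/- 3, so WT 2, WT 3 and Rev-/- 2 carried both transcripts and the arrays did not all follow the label of sex. Whether samples were mixed or mislabelled was not tested. A probe counted as above background when it passed the 95th percentile of a background distribution, taken as the dim side of the peak of log2 values on its array and its mirror image, and it was kept when it did so on at least 3 arrays.

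Rev-erbα binds DNA at elements that hold the core motif AGGTCA, which reads TGACCT on the other strand. The motif is only the core of the response element that Rev-erbα shares with RORα, and the bases beside it were not examined. This motif was looked for on both strands in RefSeq promoter windows of GRCm38.p6, each 300 bases long, from 250 bases before to 50 bases after a start of transcription. Windows matched 6 of the 10 genes, 9 windows in all, namely those of Fbn1, Fbln1, Fbln2, Fbln5, Emilin1 and Mfap2. The motif was found in 3 of the 9 windows and in 16.3% of all 32851 windows. The 3 windows were those of Fbln5 and Mfap2 only, so nothing is read from the share. The windows below are shown because they are those of an assembly gene and of a microfibril gene that hold it, with the motif in capitals and each sequence written 5′ to 3′ along its gene. A further Mfap2 window, which overlaps the one shown, holds the same TGACCT.
Mfap2, chr4:141010174-141010473, plus strand: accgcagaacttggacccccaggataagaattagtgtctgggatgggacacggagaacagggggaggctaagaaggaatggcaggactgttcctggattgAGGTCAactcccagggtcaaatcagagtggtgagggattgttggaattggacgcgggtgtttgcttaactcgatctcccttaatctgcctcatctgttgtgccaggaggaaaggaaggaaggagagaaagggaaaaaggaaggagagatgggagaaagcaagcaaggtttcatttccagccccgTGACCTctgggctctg
Fbln5, chr12:101818435-101818734, minus strand: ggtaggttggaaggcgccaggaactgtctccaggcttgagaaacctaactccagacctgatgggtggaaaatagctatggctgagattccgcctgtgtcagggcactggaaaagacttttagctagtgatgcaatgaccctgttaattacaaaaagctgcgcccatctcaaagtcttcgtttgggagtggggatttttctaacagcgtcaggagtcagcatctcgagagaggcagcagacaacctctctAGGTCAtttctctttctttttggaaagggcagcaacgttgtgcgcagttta

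In the Mfap2 window AGGTCA lies at bases −150 to −145 before the start and TGACCT at bases 35 to 40 after it. In the Fbln5 window the motif spans the start itself, from base −1 to base 5. The windows of Fbn1, Fbln1, Fbln2 and Emilin1 and the other window of Fbln5 did not contain these letters. A match is a string of letters and was not tested as a binding site. The array values of these 2 genes are given below: Mfap2 was bright on every array and Fbln5 was at background on every array.

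Of the 8 genes with a probe, 7 had a probe that was kept, and 14 of their 17 probes passed the filter. Across the 18133 kept probes with 1 gene symbol, 0 (0%) were called between Rev-/- and WT by limma, where a call needed both a 1.5-fold change and an adjusted p of 0.05 or less. Accordingly, 0 of the 14 member probes were called. At an unadjusted p of at most 0.05, limma counted 2 of the 14, the brighter Eln probe and the dimmest Mfap2 probe, against 557 (3.07%) of all kept probes. Since this contrast was in view when the genes were proposed, nothing is read from these counts. Where a gene had several kept probes the one with the highest mean stands for it. The 7 genes then had a median log2 difference of 0.016, Rev-/- minus WT, and ran from −0.17 to 0.54, with 4 higher on the Rev-/- arrays. All 11624 genes with a kept probe had a median of −0.0050, and 5555 were higher. With array medians aligned the median of the 7 was −0.26, and on the deposited values it was −0.31, where all kept probes had −0.13. On array Rev-/- 1 the 7 genes lay at a median of 0.11 above their own means, and on WT 1 and WT 2 at 0.14 and −0.21.

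**Figure D1:**
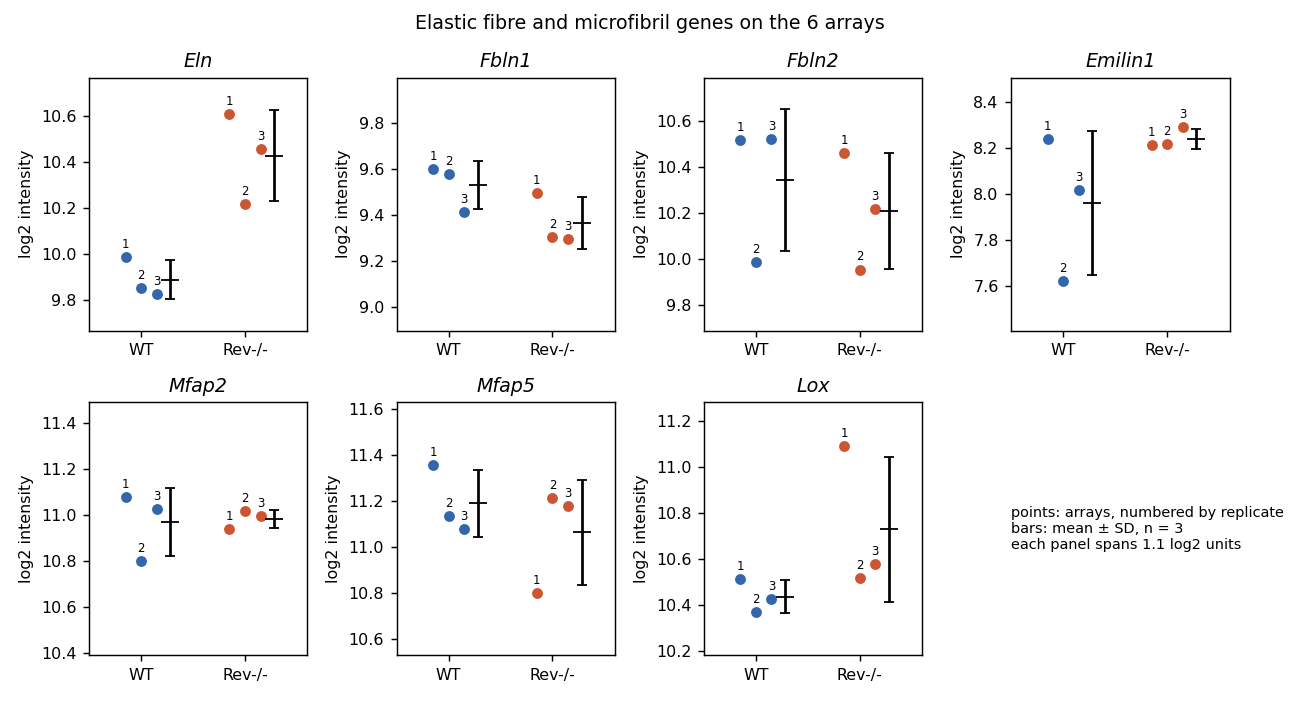
Log2 quantile-normalized intensity of the brightest kept probe of 7 genes (vertical axes, each spanning 1.1 log2 units) on the arrays labelled WT and Rev-/-. Points are arrays numbered by replicate and bars give the mean ± SD of 3 arrays. Eln is the gene whose labels lie farthest apart, at 9.83 to 9.99 on WT and 10.22 to 10.61 on Rev-/- arrays, while the high Lox mean rests on Rev-/- 1 at 11.09.

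Eln encodes tropoelastin, the soluble precursor that makes up the elastic core. Its brighter probe read 9.99, 9.85 and 9.83 in log2 intensity on WT 1, 2 and 3 and 10.61, 10.22 and 10.46 on Rev-/- 1, 2 and 3. All 3 Rev-/- arrays lay above all 3 WT arrays. The means were 9.89 ± 0.087 (SD, n = 3) and 10.43 ± 0.20 (SD, n = 3), a log2 difference of 0.54 (SE 0.11) or 1.45-fold, below the 1.5-fold limit. It also missed the limit on adjusted p, as did every kept probe. Among the 11624 genes, the values of WT and Rev-/- arrays did not overlap for 942 (8.10%). Array Rev-/- 1, with its bright bone and neutrophil markers, was the highest for Eln, and without it the difference was 0.45 (SE 0.097) and the labels still did not overlap. Leaving out any other array gave 0.51 to 0.64.

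A second probe carries the Eln symbol with no transcript accession in the annotation. It read 6.78, 6.87 and 6.80 on the WT arrays and 6.85, 6.76 and 6.85 on the Rev-/- arrays, a log2 difference of 0.0061 (SE 0.062). This probe stayed close to background on all 6 arrays and its labels overlapped. The difference of Eln therefore rests on 1 probe, and the mean of both probes gave 0.27 (SE 0.074).

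The size of the Eln difference also moved with the scaling of the arrays. It was 0.54 (SE 0.11) after quantile normalization and cyclic loess, 0.29 (SE 0.14) with the array medians aligned and 0.24 (SE 0.16) on the deposited values, where the median of all kept probes was −0.13. On the deposited values bright probes were dimmer on the Rev-/- arrays. The 1134 kept probes within 0.5 log2 units of Eln in mean brightness had a median difference of −0.30 there, and −0.26 with medians aligned. Taken relative to these probes, the Eln difference was 0.54 on the deposited values, 0.54 with medians aligned and 0.55 after quantile normalization. This reference was added after the data were seen.

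**Figure D2:**
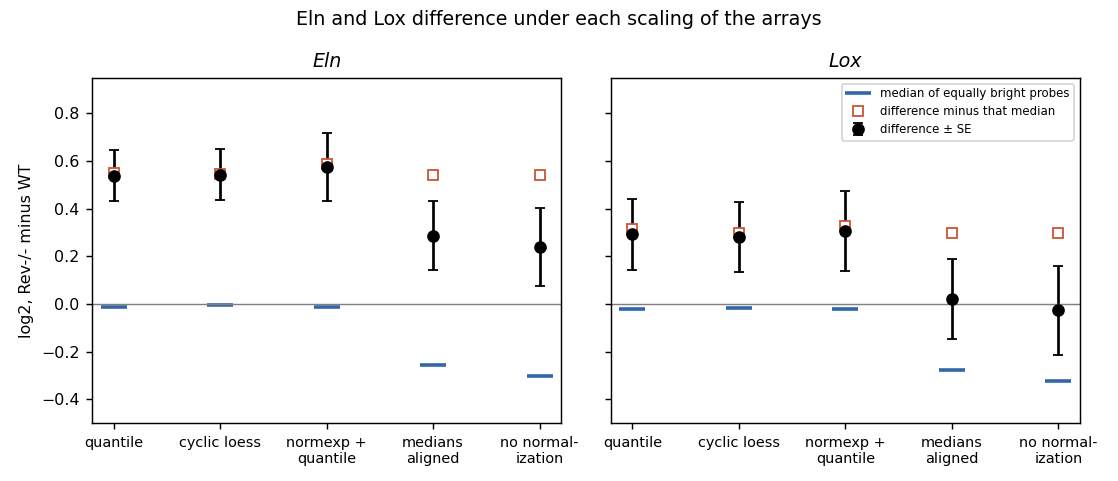
Log2 difference of Eln and Lox, Rev-/- minus WT (vertical axis), under 5 ways of scaling the arrays (horizontal axis). Black points are the difference ± SE, blue bars the median of kept probes within 0.5 log2 units of the gene in brightness, and open squares the point minus that bar. Eln falls from 0.54 to 0.24 without normalization while its square stays at 0.54 or above, and Lox falls from 0.29 to −0.026.

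Lox encodes lysyl oxidase, the copper enzyme that oxidises lysines of tropoelastin and of collagens so that they cross-link. Its probe read 10.51, 10.37 and 10.42 on the WT arrays and 11.09, 10.52 and 10.58 on the Rev-/- arrays. The labels did not overlap, but WT 1 and Rev-/- 2 were nearly equal and Rev-/- 1 alone was clearly high. The log2 difference was 0.29 (SE 0.15) with all arrays and 0.11 (SE 0.074) without Rev-/- 1. It was 0.021 (SE 0.17) with array medians aligned and −0.026 (SE 0.19) on the deposited values, where the 852 kept probes of like brightness had a median of −0.33. Relative to these probes the Lox difference was 0.30 under both and 0.31 after quantile normalization. On array Rev-/- 1, 4 of 5 bone markers were kept and bright, with Bglap, the bone matrix protein osteocalcin, at 11.08 against 6.61 to 7.10 on the other arrays. The part of bone RNA in the Lox value was not tested. In bulk RNA of this kind, fewer cells of a type and less RNA per cell cannot be told apart.

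Without array Rev-/- 1, the labels of 3 of the 7 genes did not overlap, namely Eln, Lox and Fbln1, against 18.4% of all genes on the same 5 arrays. With all 6 arrays they were 2 of 7, Eln and Lox, against 8.10% of all genes. With fewer arrays the labels have fewer ways to overlap, so nothing is read from the higher share on 5 arrays.

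The fibulins are secreted proteins with calcium-binding EGF domains that link elastin to other matrix proteins. Fbln1, found on elastic fibres and basement membranes, had 5 probes. The brightest read 9.60, 9.58 and 9.41 on the WT arrays and 9.49, 9.31 and 9.30 on the Rev-/- arrays, so WT 3 lay below Rev-/- 1. The log2 difference was −0.17 (SE 0.084), with a 95% interval from −0.36 to 0.032. The other 3 kept probes were also lower on the Rev-/- arrays, at −0.11, −0.085 and −0.057, each by less than its SE of 0.090 to 0.13 or, for the first, by little more. The last probe was above background on 1 array.

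Fbln2, a fibulin that binds tropoelastin and is found beside Fbln5 in elastic tissue, varied among arrays of the same label. Its brightest probe read 10.52, 9.98 and 10.52 on the WT arrays and 10.46, 9.95 and 10.21 on the Rev-/- arrays. It was low on WT 2 and Rev-/- 2 and high on WT 1, WT 3 and Rev-/- 1, and the labels overlapped throughout. The log2 difference was −0.13 (SE 0.18) and ran from −0.31 without WT 2 to −0.0038 without Rev-/- 2. A second kept probe gave 7.64, 7.62 and 7.97 on the WT arrays and 7.58, 7.37 and 7.67 on the Rev-/- arrays, again lowest on Rev-/- 2 and highest on WT 3. The 5 cartilage markers, all kept, averaged 7.94 on WT 2 and 7.55 on Rev-/- 2, and from 8.37 to 9.73 on the other 4 arrays, so they were lowest where the brightest Fbln2 probe was lowest. This list was named after its values were seen. The kept tendon markers were also lowest on WT 2 and Rev-/- 2, at 8.20 and 8.25 against 8.29 to 8.58. So was the list of TGF-β and its latent binding proteins, at 8.51 and 8.52 against 8.65 to 8.84. The list of relatives of Lox and the proteins that mature it was too, at 8.92 and 8.91 against 8.98 to 9.15. The part of cartilage or any other tissue in the Fbln2 values was not tested.

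Fbln5, which brings tropoelastin to the microfibril, was not well above background in either group. Its probe stayed between 6.52 and 6.64 on all 6 arrays, and no fold is given. Emilin1, an elastin-associated glycoprotein of the EMILIN family, read 8.24, 7.62 and 8.02 on the WT arrays and 8.21, 8.21 and 8.29 on the Rev-/- arrays. The Rev-/- arrays lay close together at the level of WT 1, and WT 2 was low, so the labels overlapped. The log2 difference was 0.28 (SE 0.15) with all arrays and 0.11 (SE 0.090) without WT 2, with 95% limits of −0.061 and 0.62 in the first case.

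Mfap2 encodes MAGP-1, a small glycoprotein that binds fibrillins along the microfibril. Its brightest probe read 11.08, 10.80 and 11.03 on the WT arrays and 10.94, 11.02 and 11.00 on the Rev-/- arrays, a log2 difference of 0.016 (SE 0.085). For this probe and on this scaling the 95% interval ran from −0.18 to 0.21 and did not reach 1.5-fold. The 2 other probes, designed to the same transcript accession, went opposite ways. One read 9.07, 8.57 and 8.92 on the WT arrays and 8.91, 8.59 and 8.68 on the Rev-/- arrays, at −0.13 (SE 0.14). The other read 8.83, 8.26 and 8.39 on the WT arrays and 8.78, 9.001 and 8.84 on the Rev-/- arrays, at 0.38 (SE 0.15). Its 95% interval ran from 0.035 to 0.73 and took in 1.5-fold. Rev-/- 1 lay below WT 1 for this dimmest probe, so its labels overlapped. The 3 probes shared a low value on WT 2 and did not share an order of the Rev-/- arrays. The sign for the brightest probe turned with the scaling, to −0.26 with array medians aligned and −0.31 on the deposited values. The 631 kept probes of like brightness had medians of −0.29 and −0.34 there, and relative to them Mfap2 was at 0.030 under both and at 0.038 after quantile normalization.

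Mfap5 encodes MAGP-2, the relative of MAGP-1 in microfibrils. Its probe read 11.36, 11.13 and 11.08 on the WT arrays and 10.80, 11.21 and 11.18 on the Rev-/- arrays. Array Rev-/- 1 was the lowest of the 6, where Eln and Lox were highest. The log2 difference of −0.13 (SE 0.13) became 0.0052 (SE 0.096) without that array.

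**Figure D3:**
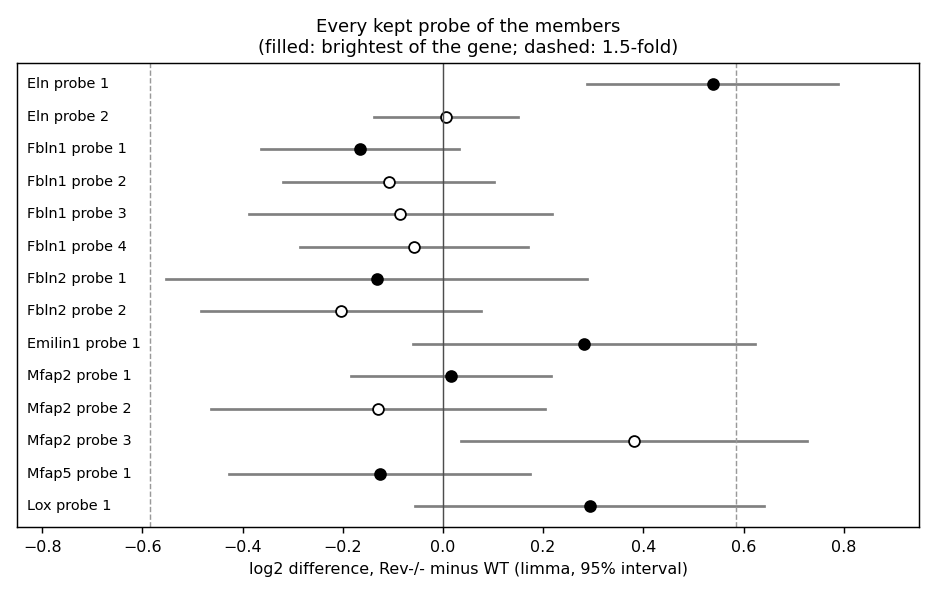
Log2 difference, Rev-/- minus WT (horizontal axis), of the 14 kept probes of 7 genes. Points are limma estimates with 95% intervals, filled for the brightest probe of each gene, and dashed lines mark 1.5-fold. The Eln probes lie at 0.54 and 0.0061, but the second is close to background and could show little difference. The Mfap2 probes disagree (0.016, −0.13 and 0.38), while the 4 of Fbln1 all lie between −0.17 and −0.057.

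The spread of these genes over the arrays, whatever the label, was wide in most cases. Their median SD over the 6 arrays was 0.25 log2 units, and that of all 11624 genes was 0.11. The SD of Eln lay at percentile 97.1 of all genes, that of Fbln2 at 94.6, Lox at 94.4, Emilin1 at 93.9, Mfap5 at 84.4, Fbln1 at 64.3 and Mfap2 at 42.4. For Eln this spread includes the difference between the labels. The ranking was not matched for brightness, and the 7 probes averaged 9.91 to 10.23 in log2 intensity on the arrays. The dim second Eln probe had an SD of 0.045, at percentile 5.8. Whether the wide spread goes with brightness was not tested. Without array Rev-/- 1 the median SD was 0.15 against 0.097 for all genes, and 6 of the 7 genes lay above the median of all genes, as with all arrays, but not the same 6. Lox dropped to percentile 38.7 and Mfap5 to 56.0, Mfap2 rose to 58.5, and Fbln2 and Emilin1 rose to 97.7 and 97.8.

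**Figure D4:**
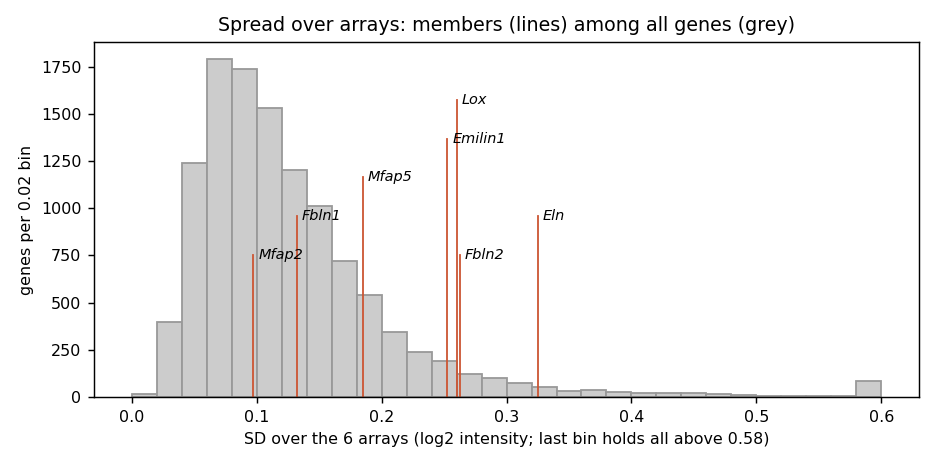
Histogram of the SD over 6 arrays (horizontal axis, log2 units) of all 11624 genes (vertical axis, genes per bin of 0.02), with the 7 genes as lines whose heights carry no value. Eln, Fbln2, Lox and Emilin1 lie between 0.25 and 0.32, above the median of 0.11. The genes are not matched for brightness.

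The arrays did not order the 7 genes alike. WT 1 was highest for Fbln1, Mfap2 and Mfap5, Rev-/- 1 for Eln and Lox, WT 3 for Fbln2 and Rev-/- 3 for Emilin1. Among all genes 21.8% were highest on Rev-/- 1 and 16.4% on WT 1. WT 2 was lowest for Emilin1, Mfap2 and Lox, and for 14.3% of all genes. The pattern of Eln over the arrays was then set beside that of each of the other 11623 genes, by the root mean square difference of their centred log2 values. The nearest genes were Ankrd11, a chromatin regulator, at 0.12, Fn1, the matrix protein fibronectin, at 0.13, and Khsrp, an RNA-binding protein, Kif23, a mitotic kinesin, and Klf13, a zinc finger transcription factor, each at 0.14. The median over all genes was 0.32. These 5 genes were picked for this likeness over 6 arrays out of many genes, so it is a description only.

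Partners of the elastic fibre were gathered in 5 lists by role, with 46 measured genes in all, of which 0 were called by limma. At an unadjusted p of at most 0.05, limma counted 1 of the 46, Fn1, against 3.07% of all kept probes. Nothing is read from this count. Fn1, which microfibrils need for their assembly, read 10.69, 10.71 and 10.69 on the WT arrays and 11.14, 10.79 and 11.07 on the Rev-/- arrays. All 3 Rev-/- arrays lay higher, at a log2 difference of 0.30 (SE 0.095) with quantile normalization and −0.021 (SE 0.14) without any, where the 705 kept probes of like brightness had a median of −0.33. Other fibulins, EMILINs and microfibril-associated proteins had a median difference of 0.013 over 14 measured of 20 listed, with 0 called in either direction. Those with the smallest p were Mfap3 at −0.11 (SE 0.073) and Mfap3l at 0.15 (SE 0.15), the second at 0.25 (SE 0.15) without Rev-/- 1. Latent TGF-β binding proteins, which tether the growth factor to microfibrils, and TGF-β itself had a median of 0.060 over 6 of 7, with 0 called. Tgfb1 was at 0.21 (SE 0.20), but at −0.027 (SE 0.11) without Rev-/- 1, where it read 7.97 against 7.13 to 7.42 elsewhere. Tgfb2 was at −0.072 (SE 0.078).

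The relatives of Lox and the proteins that mature it had a median of 0.015 over 6 of 10, with 0 called, and Loxl4 was at 0.10 (SE 0.078), or 0.032 (SE 0.071) without Rev-/- 1. Loxl1, the relative that cross-links elastin, was bright at 10.98 to 11.35 on all arrays, with a difference of −0.034 (SE 0.12), or −0.15 (SE 0.10) without Rev-/- 1, and is named after its values were seen. Receptors for elastin and fibrillin, integrins and the elastin receptor complex, had a median of 0.040 over 10 of 11, with 0 called. The integrin chains Itgb5 and Itgb1 were at −0.16 (SE 0.074) and −0.20 (SE 0.11), the second at −0.067 (SE 0.066) without Rev-/- 1.

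Proteases that degrade elastin and their inhibitors had a median of 0.31 over 10 of 12, with 0 called, and of −0.013 without array Rev-/- 1. Timp2, an inhibitor of metalloproteinases, was at 0.26 (SE 0.14) and 0.13 (SE 0.12) without that array. Elane, neutrophil elastase, was at 0.47 (SE 0.36) and, without it, at 0.00042 (SE 0.094), since 8.26 on Rev-/- 1 faced 6.71 to 6.98 on the other arrays. Mmp9, a gelatinase of neutrophils and osteoclasts, read 7.00, 7.40 and 7.18 on the WT arrays and 11.43, 6.86 and 7.04 on the Rev-/- arrays. Ctsk, the bone-resorbing cathepsin K, read 9.99, 9.87 and 9.99 on the WT arrays and 12.49, 9.74 and 9.95 on the Rev-/- arrays. Both were picked after their values were seen, and both were high on Rev-/- 1 alone, as was the mean of the bone markers. The mean of the neutrophil markers was highest on Rev-/- 1 but also stood at 8.52 on WT 2 and 8.27 on Rev-/- 3, against 6.93 on WT 1.

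Markers of cells that make elastic fibres were measured beside these genes. The 4 kept smooth muscle markers, of 5 listed, averaged 10.16 to 10.28 in log2 intensity on the WT arrays and 10.19 to 10.34 on the Rev-/- arrays. One of them, Des, is also a skeletal muscle gene, and Cnn1, calponin, was above background on 2 arrays. Myh11, the smooth muscle myosin, read 8.07, 7.85 and 7.93 on the WT arrays and 8.08, 8.09 and 8.34 on the Rev-/- arrays, so all 3 Rev-/- arrays were higher, as for Eln, though Rev-/- 1 and 2 nearly equalled WT 1. It was named after its values were seen, and the other 3 kept markers did not separate the labels, with Acta2, smooth muscle actin, at 0.011 (SE 0.13), Tagln at 0.10 (SE 0.10) and Des at −0.024 (SE 0.13). The 6 fibroblast markers, all kept, averaged 11.25 to 11.45 on the WT arrays and 11.28 to 11.62 on the Rev-/- arrays, and the ranges overlapped. The isolation had included a pre-plating step against fibroblasts. The part of either cell type in the Eln value was not tested.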

How the data were processed

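RNA labelled as that of primary myoblasts was measured on 3 arrays labelled WT and 3 labelled Rev-/-. The deposited intensity values were extracted by the authors with Illumina software and, per their methods, background-subtracted and quantile-normalized with lumi; the sources used here give no versions. The 6 deposited columns were on a linear scale, with medians of 98.4 to 107, and did not share 1 distribution. The lowest values were 76.2 to 83.7, so a floor remained in the intensities. Such a floor makes log2 differences smaller, most for dim probes. After normexp with an offset of 16, the difference was 0.57 for Eln and 0.39 for Emilin1, against 0.54 and 0.28. For the main results, the log2 values after a new quantile normalization were analysed in limma 3.58.1 under R 4.3.3. A table of signals and detection p-values in 12 columns, named by array position only, was not used. Of the probes, 34885 had 1 gene symbol, 18 several and 10378 none, and of the 34885 with 1 symbol 34807 matched a current gene by number. Between 20713 and 21900 probes per array lay above background, and 3 arrays per label limit the precision.

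The comparison of labels used lmFit and eBayes, had no block term, and adjusted p by Benjamini-Hochberg over the 18133 kept probes. The step was tested on simulated data with the same noise for every probe and no outlying array. These arrays differ from that setting, so the simulation does not bear on the absence of calls. The members and lists were chosen with earlier results of these data known. Named genes were all members, the 2 partners of smallest p in each list, the 5 genes nearest to Eln in pattern, Nr1d1 and markers that moved with a member. Alternatives were other scalings, normexp with an offset of 16, other filters, array weights, an intensity trend, a replicate block, the mean of probes, no minimum fold and leaving out each array.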

Additional observations from a re-analysis of the deposited data

How the results depend on the processing

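Under the 16 alternatives, 0 probes of all genes, 0 of the members and 0 of the partners were called by limma, which includes leaving out each array and dropping the minimum fold. Eln stayed higher on the Rev-/- arrays in all 16 run on it, from 0.24 to 0.64, as did Emilin1, from 0.077 to 0.41, and Fbln1 and Fbln2 stayed lower, from −0.44 to −0.10 and from −0.43 to −0.0038. The sign turned for Mfap2 with array medians aligned (−0.26) and without normalization (−0.31), and for Lox without normalization (−0.026). Relative to probes of like brightness, which moved the same way, Mfap2 stayed at 0.030 under both and Lox at 0.30. The lowest values of Fbln1 and Fbln2 came without normalization, and relative to such probes they were −0.16 and −0.12 there. Mfap5 was at −0.39 with array medians aligned and −0.44 without normalization. Relative to such probes it was at −0.11 under both. Leaving out single arrays gave −0.067 to 0.073 for Mfap2, −0.20 to 0.0052 for Mfap5 and 0.11 to 0.39 for Lox. The median over the 7 genes was 0.016, and moved to −0.26 with array medians aligned and −0.31 without normalization, where bright probes of all genes were dimmer on the Rev-/- arrays. Leaving out single arrays it ran from −0.067 to 0.073. The labels share replicate numbers, but over all genes arrays of the same number did not deviate together (correlations of −0.17, 0.12 and 0.052). Arrays of different numbers had correlations of −0.25 to 0.15. With the number as a replicate block, Eln was at 0.54 (SE 0.082) and 0 probes were called. The SE fell with the block for Fbln2, from 0.18 to 0.082, and for Lox, from 0.15 to 0.11. It rose for Mfap2, from 0.085 to 0.090, and for Mfap5, from 0.13 to 0.15. The median differences of 4 of the 5 partner lists were below 0 with array medians aligned and without normalization, and that of the proteases was 0.050 and 0.0031. The smallest adjusted p over all probes was 0.997.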
